A study of Bos taurus with 22 samples.

Results

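Messenger RNA of the amino acid response was followed in the jejunal mucosa of growing Holstein steers through 10 genes, ATF4 and 9 genes that it is known to switch on, ASNS, PHGDH, PSAT1, SHMT2, DDIT3, ATF3, TRIB3, CHAC1 and SESN2. The genes were chosen by name as a pathway, with earlier results of these data already known, and all 10 were found among the 27570 genes of the count table. Each library was mid-jejunal mucosa scraped from 1 limit-fed steer about a year of age, with 22 steers of 220 to 294 kg in 6 blocks of body weight. All of the steers, controls included, were infused into the abomasum with raw corn starch at 3.94 g per kg of body weight per day for 7 d, and were injected under the skin every day.

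Control steers (n = 5) received water with the starch and injections of bovine serum albumin (BSA) in saline. GLP-2 steers (n = 5) received water and glucagon-like peptide 2, a gut hormone that stimulates mucosal growth, at 100 µg per kg of body weight per day in the BSA vehicle. Casein steers (n = 6) received sodium caseinate at 1.30 g per kg of body weight per day and BSA injections. Casein + GLP-2 steers (n = 6) received both the caseinate and the peptide. The first question was whether protein delivered past the rumen changed the amino acid response, so the 12 steers given casein were set against the 10 given water, and then the 11 given GLP-2 against the 11 given vehicle. Scraped mucosa is a mixture of epithelium, immune cells and some deeper tissue, so in these bulk libraries fewer cells of a type and less RNA per cell cannot be told apart.

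When an amino acid runs short, uncharged transfer RNA activates the kinase GCN2 (EIF2AK4), which phosphorylates the initiation factor eIF2. Other eIF2 kinases do the same after stress of the endoplasmic reticulum, viral RNA or loss of heme. Most translation then slows while the ATF4 messenger is translated better, and ATF4 protein raises transcription of genes for amino acid synthesis, amino acid uptake, transfer RNA charging and feedback on the response itself. ATF4 is therefore controlled largely at the level of translation, which messenger RNA does not show.

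Libraries held 8809666 to 28447810 counts, with a median of 12028560.5. All 9 villus enterocyte markers, among them APOA4, FABP2 and SI, were counted in every treatment, and their summed level ran from 1835 to 95985 CPM (counts scaled to library size after TMM normalization). No marker of the 9 cell types looked up was at 0 throughout a treatment. The summed level of the 9 B cell follicle markers ran from 30.4 to 1976 CPM, with its highest value in a casein steer, and that of the 4 plasma cell markers from 52.9 to 5301 CPM, with its highest value in a control.

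On a scale that allows for gene length (FPKM, as deposited), the transcription factor ATF4 had the highest level of the 10 genes, 210 ± 32.0 FPKM (SD, n = 22). SHMT2, the mitochondrial serine hydroxymethyltransferase that turns serine into glycine and a one-carbon unit, followed at 57.4 ± 12.9 FPKM. Both of these places in the order held in 22 of 22 steers. DDIT3, which encodes the stress factor CHOP, had 22.5 ± 6.72 FPKM and PHGDH, the first enzyme of serine synthesis, 17.8 ± 23.6 FPKM, with DDIT3 above PHGDH in 16 of 22 steers. PSAT1, the aminotransferase that takes the next step of serine synthesis, had 8.25 ± 9.60 FPKM, and PHGDH was above it in 19 of 22 steers. SESN2, a leucine sensor that restrains mTORC1, had 7.57 ± 2.02 FPKM, and its place below PSAT1 rests on a few high PSAT1 values, since PSAT1 was above SESN2 in only 6 of 22 steers. ASNS, the asparagine synthetase, had 6.44 ± 2.28 FPKM, ATF3, an early stress factor, 5.01 ± 2.26 FPKM and TRIB3, a pseudokinase that dampens ATF4 and CHOP, 4.05 ± 1.49 FPKM, and neighbours among them changed places between steers. CHAC1, which breaks down glutathione, was lowest at 0.810 ± 0.599 FPKM and was below TRIB3 in 22 of 22 steers.

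The same genes differed widely in how much they varied between steers. ATF4 (ENSBTAG00000017462, chromosome 5:110946624-110948715, ARS-UCD1.2, plus strand) had an SD of 0.22 on the log2 CPM scale, a spread at percentile 2.94 of the 15086 genes kept for the fit of the 4 treatments. PHGDH (ENSBTAG00000039719, chromosome 3:23565140-23596466, minus strand) had an SD of 1.60, at percentile 95.2, and PSAT1 (ENSBTAG00000013960, chromosome 8:54216465-54245158, plus strand) 1.25, at percentile 85.3. CHAC1 (ENSBTAG00000010371, chromosome 10:36485672-36488431, plus strand) stood at percentile 77.9 with few reads behind it, from 0 to 50 counts a library. The count of 0 was in Control replicate 5, where 3 counts, the limit that a count of 0 allows, would have been 0.233 CPM. That limit covers counting error only.

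**Figure D1:**
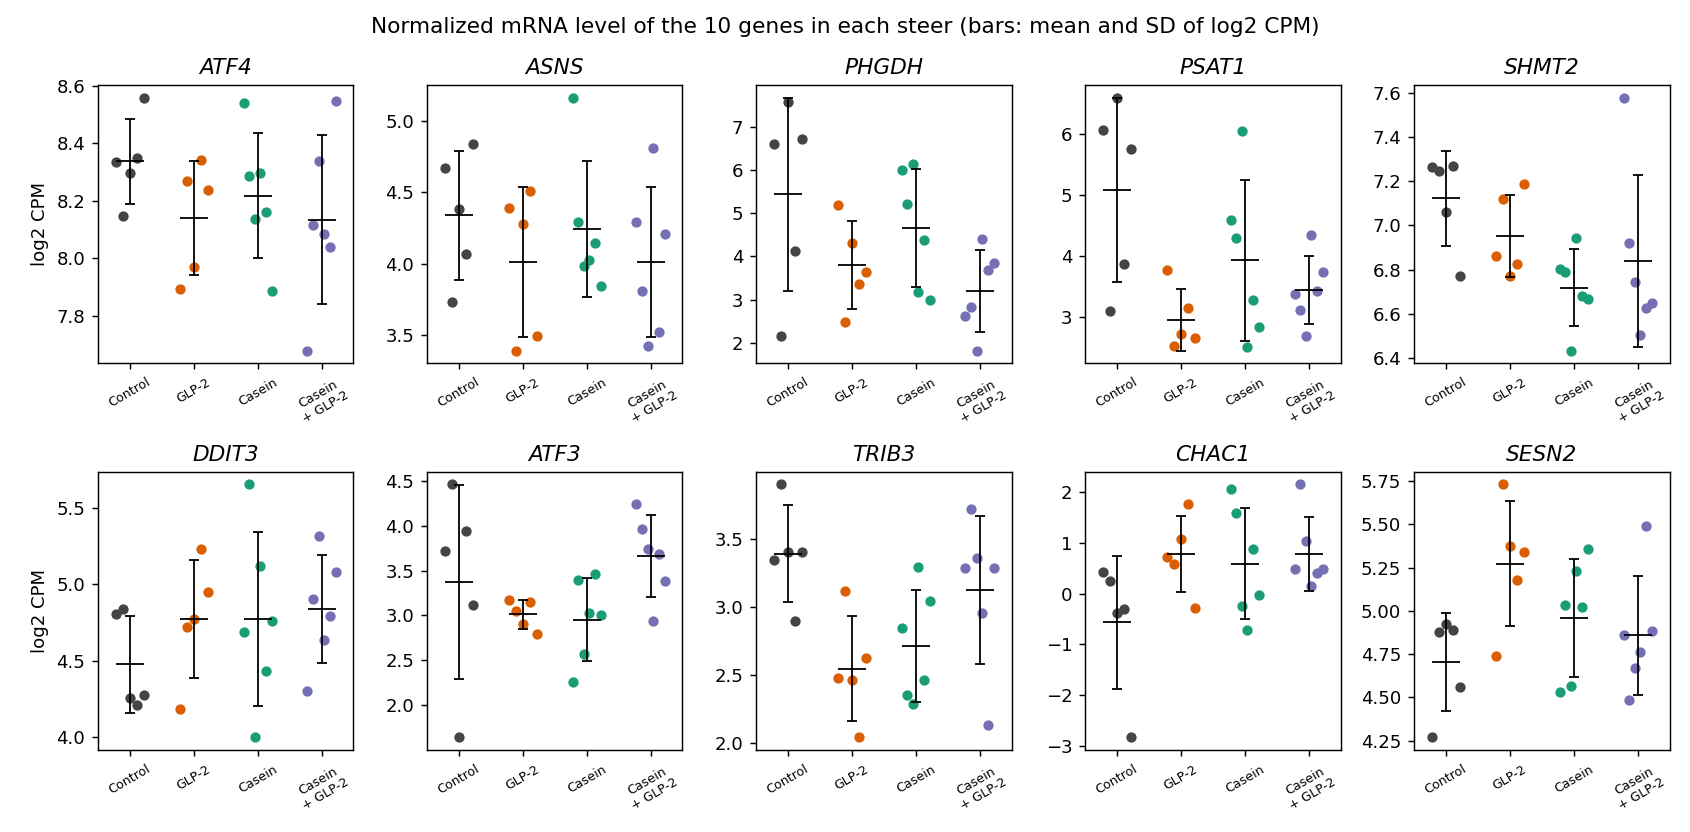
Level of each of the 10 genes in every steer, as log2 CPM on the vertical axis of each panel, by treatment on the horizontal axis, with a point for each steer and bars for the mean and SD of log2 CPM. PHGDH and PSAT1 spread most within the control and casein steers, while ATF4 stays between 205 and 377 CPM in all 22, and the vertical scale differs between panels.

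With postruminal casein infusion no change in the mRNA level of any of the 10 genes was detected by edgeR's quasi-likelihood test. The authors formulated the basal diet to exceed protein requirements, and the steers were slaughtered within hours after the infusion ended. The part of either in this result was not tested. ATF4 and the asparagine synthetase ASNS had nearly the same mean with casein as with water, PHGDH, PSAT1 and SHMT2 had lower means that did not pass the test, and CHAC1 and DDIT3 had higher means that did not pass it either. No member reached an unadjusted p of 0.05, beside 474 of the 14096 genes tested (3.36%). None was called after adjustment, as for all genes tested (0 called, or 0%), and the DESeq2 Wald test called 5 genes, no member among them. Estimates were lower with casein for 7 members and higher for 3, with a median log2 fold change of -0.072 against 0.0032 over all genes tested.

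ATF4 had 237 to 377 CPM with water (median 311) and 205 to 374 CPM with casein (median 284). The ranges covered each other almost entirely, and the log2 fold change was -0.064 with an approximate 95% interval of -0.29 to 0.17. ASNS (ENSBTAG00000003222, chromosome 4:15128694-15276513, minus strand), the classical reporter of amino acid shortage, had 10.4 to 28.5 CPM with water (median 20.01) and 10.6 to 35.7 CPM with casein (median 16.9). Its log2 fold change was -0.042, and the interval of -0.46 to 0.38 leaves room for a moderate difference either way. The highest ASNS value of all steers was in a casein steer, replicate 1.

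Among the serine and glycine genes, PHGDH had 4.32 to 191 CPM with water (median 18.6) and 3.41 to 70.6 CPM with casein (median 13.5). Steers of both kinds lay at both ends of the scale, and the log2 fold change of -1.15 had a standard error of 0.636 (adjusted p = 0.994, edgeR). It was -0.58 without Control replicate 3, the steer with the highest PHGDH value, and -0.11 with the dividing cell score in the fit, an alternative chosen after seeing the data. PSAT1 had 5.55 to 96.7 CPM with water (median 11.02) and 5.55 to 65.9 CPM with casein (median 10.4), a log2 fold change of -0.77 with an interval of -1.84 to 0.31, which was -0.29 without Control replicate 3 and -1.24 without Casein replicate 3. SHMT2 (ENSBTAG00000031500, chromosome 5:56208141-56213412, minus strand) had 109 to 154 CPM with water (median 136) and 86.3 to 191 CPM with casein (median 105), a log2 fold change of -0.24 with the unadjusted p nearest to the threshold, 0.0758. The lowest SHMT2 value with water was 109 CPM, and Casein replicates 1, 2 and 4 lay above it (112, 110 and 123 CPM). Casein + GLP-2 replicates 1 and 2 had 191 and 121 CPM, the former being the highest of all. The other steers given casein had 86.3 to 107 CPM, so the groups overlapped. The 8 dividing cell markers also had lower estimates with casein, all 8 of them and 0 called, with a median log2 fold change of -0.44 and summed levels of 223 to 1221 CPM with water and 233 to 973 CPM with casein. The part of dividing cells in these differences was not tested.

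Stress factors and feedback genes did not pass the test either. DDIT3 (ENSBTAG00000031544, chromosome 5:55955676-55960509, plus strand) had 18.04 to 37.4 CPM with water (median 26.7) and 15.9 to 50.1 CPM with casein (median 27.2), a log2 fold change of 0.20 with an interval of -0.14 to 0.55. In the deposited annotation its span overlaps MARS, the methionyl transfer RNA synthetase on the opposite strand, by 59 bases, and SHMT2 overlaps NDUFA4L2 by 21 bases. How the authors' counting treated strand is not given in the sources used here. ATF3 (ENSBTAG00000008545, chromosome 16:70924511-70937490, minus strand) differed by 0.049 (interval -0.49 to 0.59) and TRIB3 (ENSBTAG00000017007, chromosome 13:60634440-60645432, minus strand) by -0.080 (interval -0.55 to 0.39). SESN2 (ENSBTAG00000002363, chromosome 2:125113996-125132377, minus strand) differed by -0.11 (interval -0.43 to 0.21). CHAC1 differed by 0.55, with an interval of -0.41 to 1.499 that its low counts leave wide.

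The wider response was read from 9 lists, which held 88 tested genes beside the members. In casein against water 0 of the 88 were called, and 1 of them (1.14%) had an unadjusted p of at most 0.05. That gene was SLC3A2, the heavy chain shared by several amino acid exchangers, with 58.7 to 640 CPM with water (mean 167) and 45.3 to 146 CPM with casein (mean 83.9). Its log2 fold change was -0.998 ± 0.343 (SE, adjusted p = 0.994, edgeR), and 1 GLP-2 steer held the highest value. The gene with the smallest p in each other list differed by 0.17 for EIF2AK4 (the kinase GCN2), -0.22 for JDP2, -0.34 for MTHFD1L, 0.53 for the argininosuccinate synthase ASS1, -0.37 for the valyl transfer RNA synthetase VARS, 0.48 for VEGFA, -0.24 for HERPUD1 and -0.21 for IER2 on the log2 scale. Each had an adjusted p of 0.994 by edgeR. The median over the 88 genes was -0.012.

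PHGDH and PSAT1, the first enzymes of serine synthesis, were called lower with exogenous GLP-2 in the fit without the body weight block. Their fitted fold changes were 0.233 and 0.288. With the block as a term neither was called (adjusted p = 0.0742 and 0.0705, edgeR). The other 8 members, including ATF4, ASNS and the third serine and glycine gene SHMT2, did not pass the test. Thus 2 of 10 members were called, both lower, beside 1881 of 13928 genes tested (13.5%) called in either direction and 8.37% called lower. Over the 10 members the median log2 fold change was -0.062, against 0.0079 over all genes tested.

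**Figure D2:**
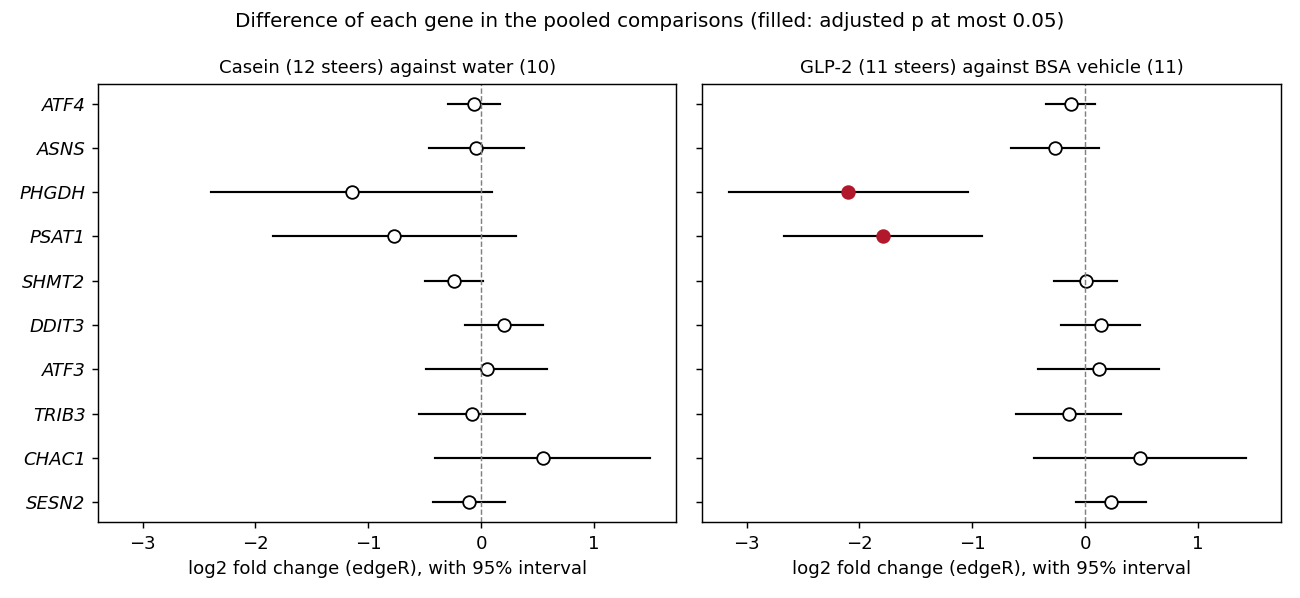
Log2 fold change of each gene on the horizontal axis, with an approximate 95% interval from the edgeR estimate and its standard error. Casein against water is on the left and GLP-2 against vehicle on the right. Filled symbols mark an adjusted p of at most 0.05 in the fit without the block, which PHGDH and PSAT1 alone reached, and only with GLP-2. Their intervals end there at -1.04 and -0.92. Whether the GLP-2 and casein effects differ was not tested here.

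For PHGDH, the control steers had 96.3, 4.32, 191, 17.4 and 105 CPM and the GLP-2 steers 36.4, 5.43, 19.8, 10.2 and 12.4 CPM. Casein steers ranged from 7.81 to 70.6 CPM (median 29.0) and casein + GLP-2 steers from 3.41 to 20.9 CPM (median 9.93). The vehicle steers were split, with 3 controls at 96.3 CPM or above and the control of block 2 at 4.32 CPM, whereas GLP-2 steers stayed at or below 36.4 CPM. The pooled groups overlapped, with a log2 fold change of -2.10 ± 0.541 (SE, adjusted p = 0.0236, edgeR). Without Control replicate 3, which held the highest PHGDH value, the log2 fold change was -1.71 and the adjusted p 0.0509.

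PSAT1 followed the same steers. Controls had 67.1, 8.38, 96.7, 14.5 and 53.7 CPM and GLP-2 steers 13.4, 5.55, 6.41, 8.64 and 6.10 CPM. Casein steers ranged from 5.55 to 65.9 CPM (median 14.5) and casein + GLP-2 steers from 6.24 to 20.03 CPM (median 10.4). The control steers were again split, with 3 at 53.7 CPM or above, while the casein and GLP-2 steers overlapped at the low end. The log2 fold change was -1.79 ± 0.447 (SE, adjusted p = 0.0226, edgeR), and the call was kept without each of the 22 steers in turn. With the body weight block as a term in the fit, both genes only tended to be lower, PSAT1 by -1.38 (adjusted p = 0.0705) and PHGDH by -1.77 (adjusted p = 0.0742), and the genes called over the whole table went from 1881 to 689.

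Cell type markers moved with GLP-2 beside these enzymes. Of 8 tested B cell follicle markers 7 were called lower, with a median log2 fold change of -4.25, and their summed level was 42.3 to 1976 CPM with vehicle (median 153) and 30.4 to 67.5 CPM with GLP-2 (median 44.0). Of the 8 dividing cell markers 4 were called lower, with sums of 233 to 1221 CPM against 223 to 759 CPM, and of the 4 plasma cell markers 2 were called lower, with sums of 68.1 to 5301 CPM against 52.9 to 1890 CPM. Of the 9 villus enterocyte markers 1 was called higher, and none of these lists had a marker at 0 throughout a treatment. A follicle score was formed as the markers' average log2 CPM in a steer. When it was added to the fit, the log2 fold change was 0.39 for PSAT1 and 0.30 for PHGDH (adjusted p = 0.999 for both), and 0 of all genes were called. The score itself differed between the groups, at 3.83 ± 2.30 with vehicle and 1.22 ± 0.53 with GLP-2 (SD, n = 11 each). This fit therefore cannot separate GLP-2 from the score. With the dividing cell score, an alternative chosen after seeing the data, the log2 fold changes were -0.14 (adjusted p = 0.903) and -0.21 (adjusted p = 0.780). Across all alternatives other than leaving out a steer, the adjusted p ran from 0.00167 to 0.999 for PSAT1 and from 0.00166 to 0.999 for PHGDH. Less of the 2 messengers per cell and fewer cells that hold them cannot be told apart here.

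**Figure D3:**
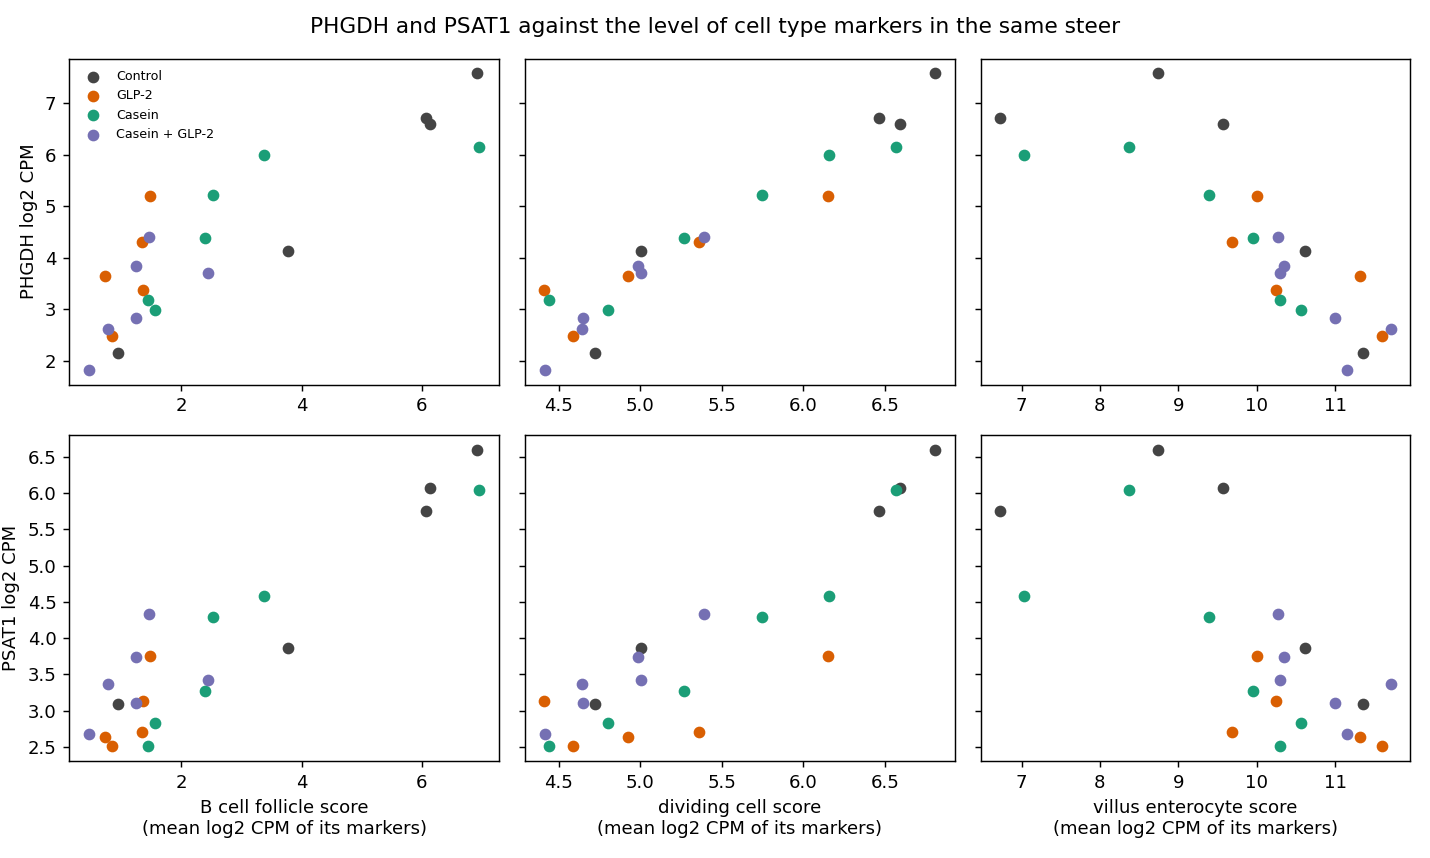
PHGDH (top) and PSAT1 (bottom) as log2 CPM on the vertical axis against the B cell follicle, dividing cell and villus enterocyte scores (mean log2 CPM of the markers) on the horizontal axes, with a point for each steer coloured by treatment. PHGDH rises with the dividing cell score (r = 0.960) and falls with the villus enterocyte score (r = -0.836) across the 22 steers. Steers given GLP-2 have follicle scores of 0.460 to 2.45, and some vehicle steers, such as Control replicate 2 (0.943), lie in that range.

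The remaining members did not pass the test between GLP-2 and vehicle, and the 95% interval of each spanned 0. ATF4 had 236 to 377 CPM with vehicle (median 314) and 205 to 374 CPM with GLP-2 (median 277), a log2 fold change of -0.13 with an interval of -0.35 to 0.092. ASNS differed by -0.27 (interval -0.66 to 0.12). SHMT2 had medians of 112 and 113 CPM and differed by 0.0048 (interval -0.27 to 0.28). The interval of SHMT2 excludes a fall of the size estimated for PHGDH or PSAT1. DDIT3 differed by 0.14, ATF3 by 0.12, TRIB3 by -0.15, CHAC1 by 0.49 and SESN2 by 0.23.

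Of the 88 genes in the 9 lists, 6 were called higher and 6 lower with GLP-2, 13.6% in all and so close to the 13.5% over all genes. All of these calls are from the fit without the body weight block, and single list genes were not looked at with the block. Among eIF2 kinases and feedback genes 2 of 9 were higher and 0 lower, the phosphatase subunit PPP1R15B by 0.88 (49.1 ± 23.3 CPM with vehicle against 89.8 ± 30.5 CPM with GLP-2, SD, n = 11 each) and EIF2AK3, the endoplasmic reticulum kinase PERK, by 0.44 on the log2 scale. Of 5 partner factors of ATF4 none was called, and CEBPG had the smallest p with 0.39 (adjusted p = 0.113, edgeR). Of 5 further serine, glycine and one-carbon enzymes 1 was lower, MTHFD1L, a mitochondrial formate-producing enzyme, at 12.04 to 58.9 CPM with vehicle (median 23.3) and 10.9 to 20.6 CPM with GLP-2 (median 15.8), by -0.99 on the log2 scale. MTHFD2 (-0.50, adjusted p = 0.101) and PSPH (-0.49, adjusted p = 0.119), the mitochondrial folate dehydrogenase and the last enzyme of serine synthesis, had lower estimates that did not pass edgeR's test. SHMT1 went the other way with a smaller p and only tended to be higher (0.41, adjusted p = 0.0709, edgeR). MTHFD1 hardly differed (-0.0032).

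Other amino acid enzymes were called in both directions in the fit without the block. BCAT1, the cytosolic branched-chain aminotransferase, had 1.16 to 43.5 CPM with vehicle (median 6.52) and 1.65 to 5.67 CPM with GLP-2 (median 2.86). It was lower by a log2 fold change of -2.40 (adjusted p = 0.0202, edgeR). GPT2, the mitochondrial alanine aminotransferase, rose by 1.15 and ALDH18A1, which makes the precursor of proline, by 0.70, from 311 ± 113 to 500 ± 142 CPM (SD, n = 11 each). Of 9 carriers, the neutral amino acid carrier SLC38A2 was higher by 0.44 and the glutamine carrier SLC1A5 lower by -0.97. Of 18 transfer RNA synthetases only VARS (-0.53) and LARS (-0.49) were called, both lower. CASTOR1, an arginine sensor, was lower by -0.83 as 1 of 7 growth control genes, and EDEM1, which helps clear misfolded proteins, was higher by 0.70 as 1 of 16 genes of the unfolded protein response. Of 12 immediate early genes none was called, and IER3 had the smallest p with -0.49 (adjusted p = 0.112, edgeR).

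Within a single infusion or injection no member was called, since 0 of 15086 genes (0%) were called by edgeR in casein against control, casein + GLP-2 against GLP-2, GLP-2 against control, casein + GLP-2 against casein, or the interaction. DESeq2 called 10, 5, 289, 891 and 2 genes in these comparisons in that order. At an unadjusted p of 0.05 the members counted 2 of 10 in casein against control (5.66% of all genes), 1 in casein + GLP-2 against GLP-2 (2.64%), 4 in GLP-2 against control (13.9%), 2 in casein + GLP-2 against casein (24.1%) and 3 for the interaction (4.28%). These comparisons share steers with each other and with the pooled ones.

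GLP-2 against control gave the larger estimates for the serine genes, -2.59 ± 0.645 for PSAT1 (SE, adjusted p = 0.142, edgeR) and -2.30 ± 0.780 for PHGDH (adjusted p = 0.229). Casein + GLP-2 against casein gave -0.94 ± 0.562 and -1.71 ± 0.704 for the same genes, and the PSAT1 value was -0.19 without Casein replicate 3, the casein steer at 65.9 CPM. For PSAT1 the interaction, by which the effect of GLP-2 under casein differed from that under water, was 1.65 ± 0.832, and for PHGDH 0.60 ± 1.01, neither of which reached an unadjusted p of 0.05. DESeq2 called both genes in GLP-2 against control, with adjusted p of 0.00425 for PSAT1 and 0.0464 for PHGDH, and edgeR called both without Control replicate 2 (adjusted p = 0.0321 and 0.0437) and PSAT1 without Casein replicate 3 (adjusted p = 0.0314) or with the smooth muscle score (adjusted p = 0.0402). Over the remaining alternatives the adjusted p ran up to 0.997 for PSAT1 and 0.973 for PHGDH.

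TRIB3 had its higher values in steers given neither or both treatments. Controls had 10.0, 14.8, 10.4, 7.32 and 10.5 CPM, GLP-2 steers 5.43, 8.54, 5.38, 3.98 and 6.03 CPM, casein steers 4.73 to 9.69 CPM (median 6.21) and casein + GLP-2 steers 4.25 to 13.1 CPM (median 9.63). Only the lowest control fell below the highest GLP-2 steer. Against control, GLP-2 gave a log2 fold change of -0.85 ± 0.297 and casein one of -0.67 ± 0.282. Casein added to GLP-2 gave 0.62 ± 0.286, and the interaction was 1.30 ± 0.402. Its unadjusted p of 0.00392 ranked 33 of 15086 genes, and the adjusted p was 0.996 by edgeR. The unadjusted p stayed at or below 0.05 in 34 of 34 alternatives, with interaction values from 1.04 to 1.54. These refits reuse the same steers, 22 of them leaving out a single steer, so the count is a description and not further evidence.

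ATF3 was arranged likewise, with 13.03, 21.9, 2.98, 15.2 and 8.53 CPM in controls and 8.86, 8.12, 7.35, 8.73 and 6.79 CPM in GLP-2 steers. Casein steers had 4.65 to 10.9 CPM (median 7.95) and casein + GLP-2 steers 7.53 to 18.8 CPM (median 13.02). The controls spanned the range of all other steers, so the groups overlapped. The interaction was 1.34 ± 0.493 (unadjusted p = 0.0123, adjusted p = 0.996, edgeR), and with the smooth muscle score in the fit it was 0.84 (unadjusted p = 0.102). Smooth muscle markers summed to 31.8 to 1457 CPM in controls, 96.2 to 809 CPM in GLP-2 steers, 62.0 to 784 CPM in casein steers and 37.0 to 267 CPM in casein + GLP-2 steers, with none of the 8 at 0 throughout a treatment, and their part in the ATF3 values was not tested.

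SESN2 had the opposite arrangement. Controls had 19.1, 29.2, 30.2, 29.4 and 23.4 CPM, GLP-2 steers 26.6, 53.0, 41.3, 36.1 and 40.3 CPM, casein steers 23.0 to 40.8 CPM (median 32.4) and casein + GLP-2 steers 22.3 to 44.8 CPM (median 27.9). All GLP-2 steers but 1 exceeded every control. GLP-2 against control gave a log2 fold change of 0.59 ± 0.219, and the interaction was -0.68 ± 0.296 (unadjusted p = 0.0311, adjusted p = 0.996, edgeR). Of 34 alternatives 21 kept the unadjusted p at or below 0.05, and without GLP-2 replicate 3, the steer at 53.0 CPM, the interaction was -0.49 (unadjusted p = 0.122).

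**Figure D4:**
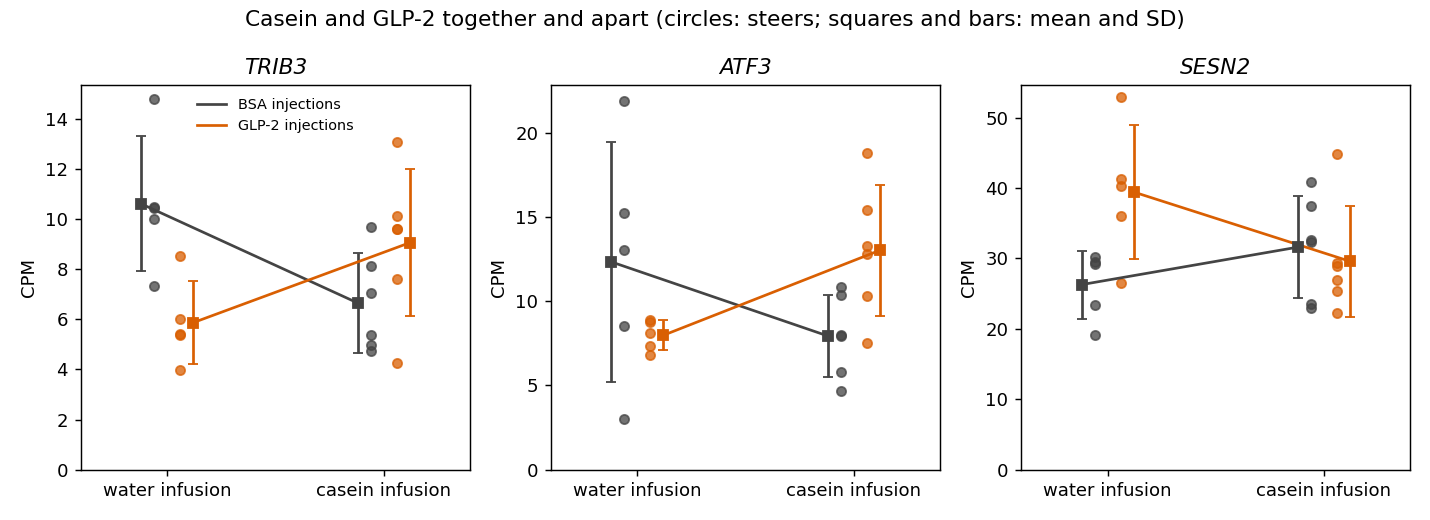
CPM of TRIB3, ATF3 and SESN2 on vertical axes that start at 0, with the infusion on the horizontal axis and the injection shown by colour, where circles are steers and squares with bars are the mean and SD. The lines for BSA and GLP-2 injections cross in each panel, with TRIB3 means of 10.6 and 5.87 CPM under water and 6.66 and 9.06 CPM under casein, and no interaction passed the adjusted threshold.

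SHMT2 was 109 to 154 CPM in controls (median 151) and 86.3 to 123 CPM in casein steers (median 106), a log2 fold change of -0.41 ± 0.173 (unadjusted p = 0.0282, adjusted p = 0.840, edgeR). Of the 5 controls, 4 were above the highest casein steer. With GLP-2 given to both sides the difference was -0.076 ± 0.174, and the interaction of 0.33 ± 0.246 did not reach an unadjusted p of 0.05.

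Over the 22 steers the members did not move as a single group. Of 45 pairs, 5 had a Pearson correlation of log2 CPM past an adjusted p of 0.05 by permutation, 3 had a Spearman correlation past it, and the median rho was -0.059. ATF4 was in none of these pairs. PHGDH and PSAT1 were the closest pair, with r = 0.897 and rho = 0.843 (permutation p = 1e-05 for both, the smallest that 100000 resamples can give, adjusted p = 0.00045). Without the 2 steers farthest from the median r was 0.838, and with treatment means removed it was 0.922, so the relation held within treatments.

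ASNS went with both serine genes, with r = 0.668 and rho = 0.697 for PHGDH (adjusted permutation p = 0.0149 and 0.00885) and r = 0.578 and rho = 0.686 for PSAT1 (adjusted permutation p = 0.0419 and 0.00885). With treatment means removed r was 0.637 for PHGDH (adjusted permutation p = 0.032) and 0.545 for PSAT1 (adjusted permutation p = 0.110). By rho the order was the other way, with 0.615 for PHGDH (adjusted permutation p = 0.0606) and 0.640 for PSAT1 (adjusted permutation p = 0.0416). PSAT1 with SESN2 (r = -0.612, rho = -0.566) and PHGDH with ATF3 (r = -0.600, rho = -0.478) had opposite signs, passed only by Pearson, and had r = -0.498 and -0.380 without the 2 farthest steers. DDIT3, TRIB3, CHAC1 and SHMT2 were in no pair past the threshold.

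**Figure D5:**
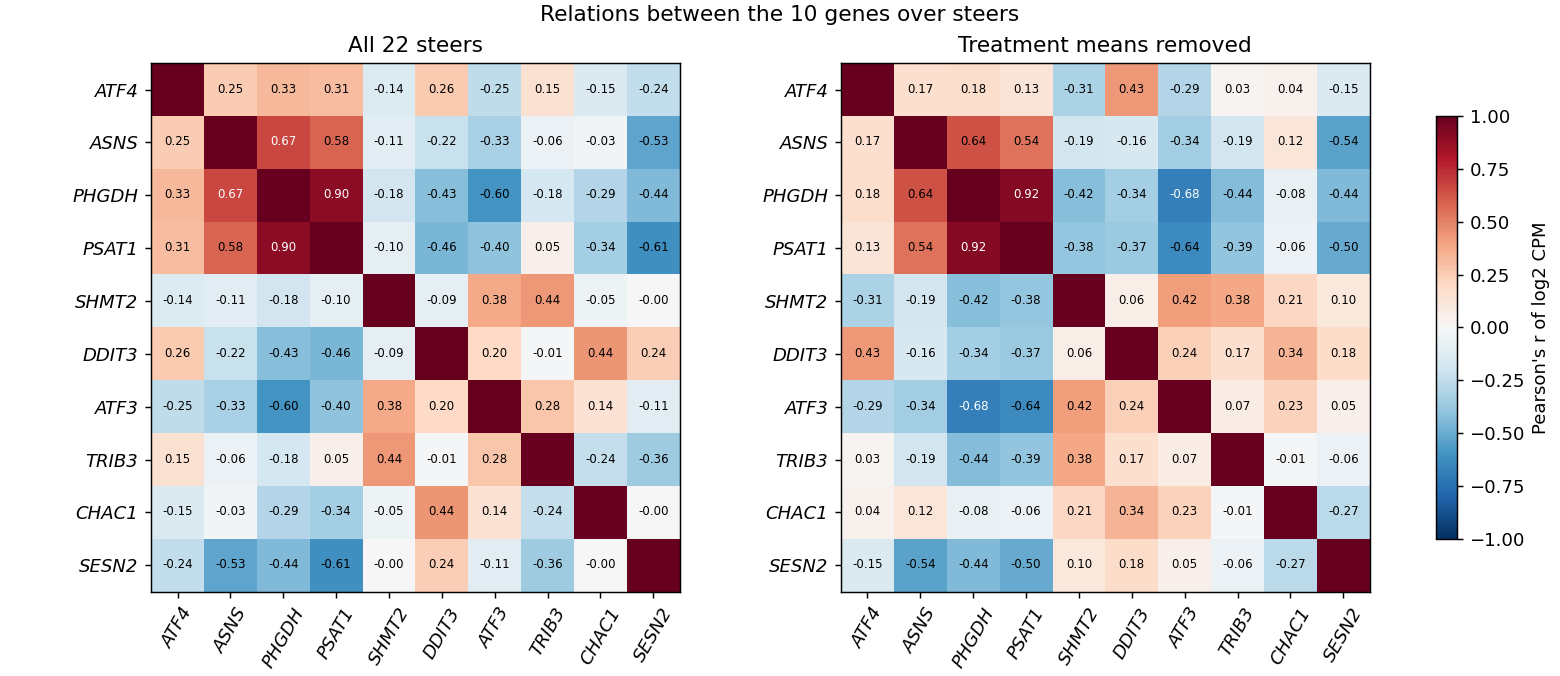
Pearson correlation of log2 CPM for each pair of the 10 genes, with genes on both axes and colour from blue (-1) to red (1), over all 22 steers on the left and with treatment means removed on the right. PHGDH, PSAT1 and ASNS form the only block of positive values past the threshold (0.897, 0.668 and 0.578 on the left), and the row of ATF4 is pale.

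Correlations with 9 cell type scores, 2 other stress gene scores and the library total, 120 in all, passed the adjusted threshold by Pearson in 16. PHGDH had r = 0.960 with the dividing cell score, 0.904 with the plasma cell score, 0.868 with the follicle score and -0.836 with the villus enterocyte score (adjusted permutation p = 0.000171 for each), and rho was 0.938, 0.898, 0.848 and -0.902. Without the 2 farthest steers r was 0.942, 0.887, 0.828 and -0.873, and with treatment means removed 0.945, 0.889, 0.843 and -0.807. PSAT1 had r = 0.928 with the follicle score and 0.904 with the dividing cell score (rho = 0.807 and 0.843, adjusted permutation p of r = 0.000171 for both). ASNS had r = 0.695 with the plasma cell score and -0.699 with the villus enterocyte score (rho = 0.644 and -0.674, adjusted permutation p of r = 0.0048 and 0.00347), 0.566 and -0.505 without the 2 farthest steers, and 0.677 and -0.678 with treatment means removed. ATF3 had the opposite signs, r = 0.571 with the villus enterocyte score, -0.595 with the smooth muscle score and -0.596 with the stem cell score (adjusted permutation p = 0.044, 0.0283 and 0.0283), and none of the 3 passed with treatment means removed. SHMT2 passed with the villus enterocyte score when treatment means were removed (r = 0.572, adjusted permutation p = 0.0104) but not before (r = 0.409). Points share their library and its normalization, and the scores correlate with each other. ATF4, DDIT3, TRIB3, CHAC1 and SESN2 passed with no score.

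By Spearman correlation over the 22 steers, the genes most like PHGDH among those kept were CCNB2, the mitotic cyclin B2 (rho = 0.971), and RBBP7, a histone-binding protein (rho = 0.967). For PSAT1 they were MTHFD2 (rho = 0.904) and POU2AF1, a B cell coactivator (rho = 0.898), and for ASNS DSN1, a kinetochore protein (rho = 0.806), and CARS, the cysteinyl transfer RNA synthetase (rho = 0.794). ATF4 had no gene nearer than rho = 0.704, for an entry named RF00401 after a small RNA family, and then GTF3C5 (0.703). The nearest were ZFAND2B (0.773) and CYB561D1 (0.759) for DDIT3, LRRC14 (0.805) and CMTR1 (0.698) for TRIB3, TMUB2 (0.752) and VPS33B (0.689) for CHAC1, and FLT3 (0.808) and PEAK3 (0.783) for SESN2. For ATF3 they were the interferon response factor IRF1 (0.762) and CYP3A5 (0.753), and for SHMT2 COPG1 (0.790) and PSMD13 (0.783). These genes were picked as the extreme of all genes, so the rho values are a description.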

How the data were processed

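Jejunal mucosal RNA of 22 steers was analysed, and a GLP-2 steer and a control steer that would complete the 6 blocks were not analysed here. Per the labels, strand-specific libraries were made from poly(A) RNA, and the submitters' processing notes name HISAT2 2.0.5, StringTie 1.3.3b, featureCounts 1.5.0-p3, DESeq2 1.20 and ARS-UCD1.2. The authors report that RNA integrity varied between samples, and its part in the levels and their spread was not tested. The authors deposited whole-number read counts per gene without normalization, and the authors also deposited FPKM values, scaled by gene length and library size, used here for levels between genes and as an alternative. Depth was 8809666 to 28447810 counts a library, and no pair of libraries was identical.

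Counts were tested in R 4.3.3 with edgeR 4.0.16 (filterByExpr with a minimum count of 10, TMM, quasi-likelihood test) with Benjamini-Hochberg adjustment over all genes kept, a threshold of 0.05 and a tendency to 0.1. Pooled comparisons had the 2 pooled groups as the model, and the others a fit of the 4 treatments. Each standard error was the size of the log2 fold change over the square root of edgeR's F statistic. The 95% intervals used it with a normal multiplier, so they are approximate and somewhat narrower than the F test implies. Steers were separate animals. CPM are TMM-normalized, and log2 CPM has a prior count of 2. Correlations used permutation tests with 100000 resamples, 2-sided. The scripts were tested on simulated data. The members and the 18 gene lists (9 response lists and 9 marker lists with 152 symbols) were chosen with earlier results of these data known. Named beside the members are the gene with the smallest p of each response list and up to 3 called genes of it. Also named are the 2 genes most alike to each member by Spearman correlation. MTHFD2, PSPH, SHMT1 and MTHFD1 were named after their values were seen. Of the list symbols CBS, MUC2 and FCGBP were not matched.

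The labels stratify steers by body weight into 6 blocks and assign treatments within blocks. Deviations from treatment means correlated by 0.0331 on average (-0.464 to 0.387) over 30 pairs of steers of the same block and by -0.0064 over 151 pairs of different blocks. Alternatives were DESeq2 1.42.0 size factors or Wald test, upper quartile normalization, other filters, the block, limma 3.58.1 on log2(FPKM + 1) or log2(FPKM + 0.1), marker scores as covariates, the other factor, a fit of only the treatments compared, and each steer left out in turn.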

Additional observations from a re-analysis of the deposited data

Results flagged for a closer look

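Within each treatment the highest and the lowest steer of each member were compared with the rest by Dixon's criterion, 40 sets in all, and chance alone flags about 1 in 20. In 2 of them a steer stood apart. ASNS in Casein replicate 1 was at 5.16 log2 CPM, or 35.7 CPM, while the other casein steers lay between 3.85 and 4.29 log2 CPM. CHAC1 in Control replicate 5 was at -2.83 log2 CPM, the value that the prior count gives a library with 0 counts, while the other controls lay between -0.38 and 0.43 log2 CPM.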

How the results depend on the processing

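No member was called under any alternative in casein against water, in either comparison of casein within an injection, in casein + GLP-2 against casein or for the interaction. The fall of PSAT1 and PHGDH with GLP-2 was kept under both other normalizations, both other filters, the DESeq2 Wald test and the other factor as a term. With limma on log2(FPKM + 1) it was -1.09 (adjusted p = 0.0563) and -1.42 (0.0564), with log2(FPKM + 0.1) -1.23 (0.0603) and -1.54 (0.0620), with the smooth muscle score -1.53 (0.0527) and -1.61 (0.0489), and with the villus enterocyte score -0.72 (0.768) and -0.49 (0.843); the cause was not tested. Depth limits CHAC1 most, since the filter of at least 10 counts in every steer removed it and so gave no value. The dividing cell and villus enterocyte scores as covariates were chosen after seeing the data.

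Genes called between GLP-2 and BSA were 1881 as reported, 689 with the replicate block, 2999 by DESeq2, 572 with the smooth muscle score, 0 with the B cell follicle, dividing cell or villus enterocyte score, and 634 to 3516 when a steer was left out. They were 742, 3516, 665 and 986 without Control replicates 1, 2, 3 and 5, 903 and 838 without GLP-2 replicates 3 and 6, 980, 1230 and 2892 without Casein replicates 1, 3 and 6, and 895, 1077 and 634 without Casein + GLP-2 replicates 1, 2 and 3, and stayed within 1.5 times the reported number without each other steer. DESeq2 called 5 genes in casein against water, 10 in casein against control, 5 in casein + GLP-2 against GLP-2, 289 in GLP-2 against control, 891 in casein + GLP-2 against casein and 2 for the interaction, where edgeR called 0. Casein + GLP-2 against GLP-2 gave 1 gene with only the 2 treatments compared and 0 to 1 without a steer (1 without Casein + GLP-2 replicate 1). GLP-2 against control gave 260 with the smooth muscle score and 0 to 429 without a steer, and the higher numbers were 429 and 8 without Control replicates 2 and 4 and 118 when Casein replicate 3 was dropped. Casein + GLP-2 against casein gave 0 to 1, with 1 without Control replicate 2, Casein replicate 4 or Casein + GLP-2 replicate 1. Member pairs past the threshold went from 5 to 2 with treatment means removed.

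Apart from PSAT1 and PHGDH with the follicle score in GLP-2 against BSA, the sign changes below are of values that were not called, on the log2 scale, and none of the new values passed the threshold. In casein against water these were ASNS 0.0091 with the replicate block, ASNS 0.082, PSAT1 0.18 and ATF3 -0.071 with the follicle score, ASNS 0.054 and ATF3 -0.048 with the smooth muscle score, ASNS 0.094, PSAT1 0.058 and ATF3 -0.11 with the dividing cell score, and ATF3 -0.014 with the enterocyte score. In GLP-2 against BSA the follicle score gave ASNS 0.011, PSAT1 0.39, PHGDH 0.30, DDIT3 -0.17, ATF3 -0.24 and SHMT2 -0.046, the smooth muscle score ATF3 -0.033 and SHMT2 -0.053, the dividing cell score ASNS 0.016, DDIT3 -0.072, ATF3 -0.20 and SHMT2 -0.067, and the enterocyte score ASNS 0.13, ATF3 -0.28 and SHMT2 -0.20. SHMT2 was there -0.0055 with DESeq2's size factors, -0.0054 by the Wald test, -0.068 with the upper quartile, -0.0016 with no filter, -0.038 with at least 10 counts and -0.017 with either FPKM scale. In GLP-2 against control the follicle score gave PSAT1 0.027 and PHGDH 1.498, and in casein + GLP-2 against casein PSAT1 was 0.59, 0.37 and 0.42 with the follicle, dividing cell and enterocyte scores and PHGDH 0.064 with the last. For the interaction PHGDH was -1.63 with the follicle score and -0.10 with the dividing cell score. The block changed no call of a member other than those of PSAT1 and PHGDH. Of the 34 member values of the single-infusion and single-injection comparisons that are not given above, 15 changed sign under some alternative and 0 passed the threshold under any.

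Without each steer in turn, signs also changed within these ranges, of values that were not called. Casein against water gave ASNS -0.18 to 0.053, TRIB3 -0.17 to 0.049 and ATF3 -0.095 to 0.24, GLP-2 against BSA ATF3 -0.027 to 0.30 and SHMT2 -0.11 to 0.047, and casein + GLP-2 against GLP-2 SHMT2 -0.26 to 0.017.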
